A study of Rattus norvegicus with 8 samples.

Results

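The liver disposes of reactive compounds largely with glutathione, a small peptide of glutamate, cysteine and glycine. Glutathione transferases join it to electrophiles, and glutathione peroxidases, peroxiredoxins and superoxide dismutases remove peroxides and superoxide. Many of these genes carry antioxidant response elements, short DNA motifs bound by Nrf2 (gene symbol Nfe2l2), a transcription factor that Keap1 holds in the cytoplasm and marks for breakdown until electrophiles or oxidants modify it. The transferases, the enzymes that make and recycle glutathione, the peroxide and superoxide enzymes, Nqo1, Keap1 and Nfe2l2 were taken as 1 group of genes. They were listed by their symbols, with earlier results of these data known. On the array, 42 genes of this kind were named, 22 transferases and 20 others. Of these, 20 had a probe set that spanned at least 0.05 (log2) across the arrays and could be compared, among 2808 such genes of the 14217 named in all. Where several probe sets stood for a gene, the brightest of those that span 0.05 was taken. Prdx1 and the alpha class genes Gsta5 and Gsta2 were listed on probe sets with 2 symbols each and were not counted.

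Male Wistar rats, given as 8 weeks old in the labels, had been fed a control diet with 0.3% phosphorus or a high-phosphorus (HP) diet with 1.2% phosphorus for 24 days, both prepared on the AIN-93G composition. The liver RNA of 4 rats in each group was hybridised to 1 Affymetrix rat array per animal, and each rat was housed alone. No genotype or drug set the groups apart, and both were fed ad libitum. The values are log2 levels that the authors summarised from the probes with FARMS, which keeps the signal that the probes of a probe set share and leaves a probe set without such signal almost constant. A constant value therefore does not show that a gene is constant. All 8 arrays had a median of 6.65, and any pair correlated at 0.968 to 0.992 (Pearson's r across the probe sets that spanned 0.05, which are not independent replicates). Of 10 hepatocyte markers 9 were named, the albumin and transthyretin genes Alb and Ttr averaged 14.53 and 13.96, and none of the 5 cholangiocyte or 6 lymphocyte markers spanned 0.05. Alb and Ttr did not span 0.05 either, so these spans do not show which cells were present. These RNAs come from whole liver, so fewer cells of a type and less RNA per cell cannot be told apart.

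The rank products method called 2 of the 20 genes, both higher in HP rats: Gsta1, an alpha class transferase, and Gstp3, a pi class transferase. Their promoter windows are shown because they belong to the called genes. Each window holds 250 bases before and 50 after the start of transcription, taken from the RefSeq annotation of the GRCr8 assembly. Gsta1 lies at chr9:31216483-31216782 on the minus strand and Gstp3 at chr1:210787635-210787934 on the minus strand, both printed 5′ to 3′ on the strand of the gene. Capitals mark the core of the antioxidant response element, TGACNNNGC, searched on both strands.
Gsta1: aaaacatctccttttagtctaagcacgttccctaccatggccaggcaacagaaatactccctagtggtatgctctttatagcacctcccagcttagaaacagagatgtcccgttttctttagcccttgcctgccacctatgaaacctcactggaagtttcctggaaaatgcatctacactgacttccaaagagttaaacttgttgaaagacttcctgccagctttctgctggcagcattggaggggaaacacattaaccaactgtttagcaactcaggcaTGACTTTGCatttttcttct
Gstp3: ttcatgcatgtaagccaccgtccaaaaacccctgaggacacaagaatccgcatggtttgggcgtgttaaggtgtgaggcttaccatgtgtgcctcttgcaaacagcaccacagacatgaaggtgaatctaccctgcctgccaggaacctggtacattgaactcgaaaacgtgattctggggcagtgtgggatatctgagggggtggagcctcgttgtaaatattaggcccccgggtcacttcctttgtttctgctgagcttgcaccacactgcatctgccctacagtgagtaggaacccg

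The Gsta1 window held the match TGACTTTGC, which began 30 bases after the start, and the Gstp3 window held none. No match says only that these letters are absent from this window. Among the genes compared, 16 had a window in the table, and 6 of the 16 (37.5%) held the core, against 12.1% of all 33469 windows. The other five were Gclm (GCTTAGTCA, 172 bases before the start), Gstm7 (TGACACAGC, 14 before), Sod2 (GCAGGGTCA, 35 before), Prdx4 (GCTTGGTCA, 19 after) and Nfe2l2 (TGACGCCGC, 38 after). Of these 6 genes with the core, Gsta1 was the 1 that rank products called. Over all genes of the group with a window, compared or not, the share was lower, 10 of 41 windows (24.4%). The letters overlap those of the AP-1 motif TGACTCA, which can begin a match, as in the Gstp1 window (TGACTCAGC). A match is a description of letters and not a bound site.

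The other 22 genes gave no comparison. Their median span over the 8 rats was 0.000358 (log2), and the widest, Gsta3, spanned 0.0114, whereas the narrowest of the 20 compared, Prdx2, spanned 0.0810. Several of the flat genes had high values. Mgst1, the abundant microsomal transferase of the endoplasmic reticulum, averaged 13.76, the thioredoxin gene Txn1 averaged 12.43, and Mgst3 and the lipid hydroperoxide reductase Gpx4 averaged 11.17 and 11.08. Among the flat genes were also central members of the pathway. Gss, which adds glycine in the last step of glutathione synthesis, averaged 8.42, Gsr, which reduces oxidised glutathione, averaged 7.27, and the quinone reductase Nqo1, a gene often used to read Nrf2 activity, averaged 7.19. Keap1 averaged 8.05, and Gstp1, the pi class transferase known as the placental form, averaged 8.11. No change of these genes could be read from the arrays in either direction.

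**Figure D1:**
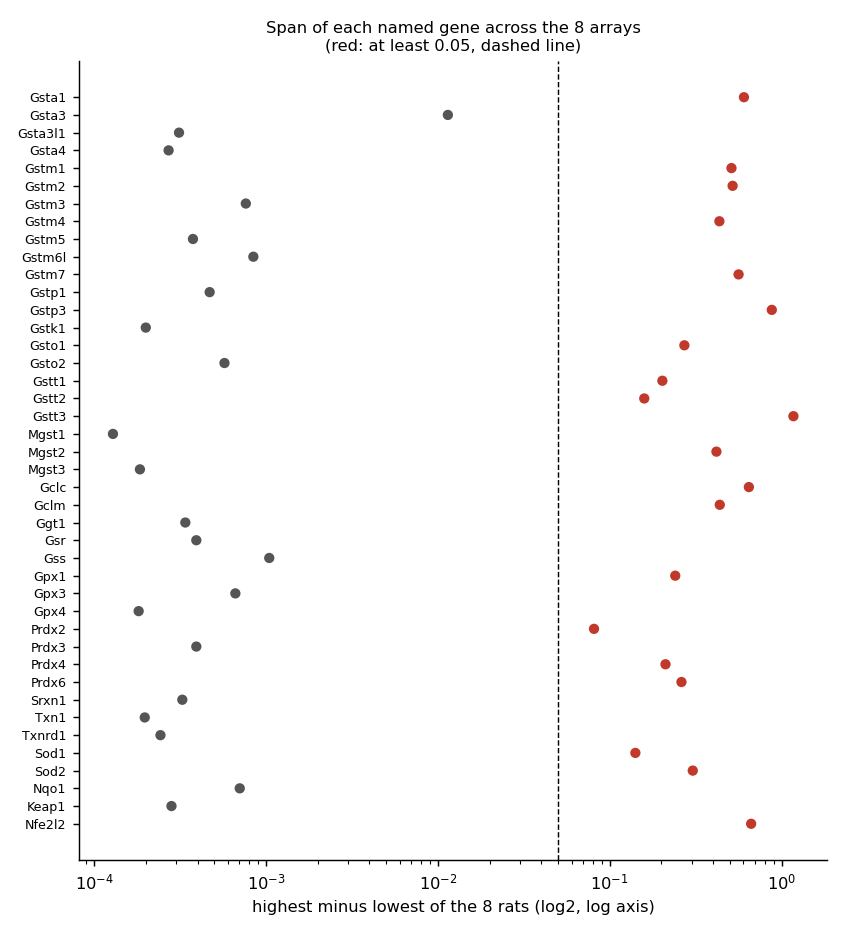
Span of each of the 42 named genes, as the highest minus the lowest of the 8 rats in log2 units on a log axis. Red points are the 20 genes at or above 0.05 (dashed line), from 0.0810 for Prdx2 upwards, and grey points are the 22 below it, of which Gsta3 is the widest at 0.0114.

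Rank products, which ranks the 16 differences between an HP and a control array within the whole table, called 2 of the 20 genes higher at a false discovery rate (FDR) under 0.05, against 8.48% of all named genes that spanned 0.05. It called 0 of 20 lower, against 9.62%. Over all probe sets of the table it called 1.14% higher and 1.57% lower. The limma linear model, which sets the difference against the spread between rats, called 0 of the 20 genes at an adjusted p under 0.05, and 0% of all named genes as well as 0% of the 4155 probe sets fitted. Without adjustment, 2 genes had a limma p under 0.05 in the higher direction, Gsta1 and Sod1, against 5.77% of named genes, and 0 in the lower direction, against 6.3%. In other limma settings the unadjusted p stayed under 0.05 in 16 of 16 for Gsta1, but in 6 of 15 for Sod1. The rats of both diets did not overlap for 1 gene that was higher, Gsta1, against 3.6%, and for 0 that were lower, against 3.53%. With 20 genes, these counts are close to the shares over all named genes.

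The HP mean was above the control mean for 16 of the 20 genes, against 45.3% of all named genes, and the 4 below were Gstm7, Gclc, Gclm and Prdx6. Among the transferases, 10 of 11 differences were above 0, and among the other genes 6 of 9. All were measured in the same 8 rats, so the genes are not separate observations. The signs of Gstm2, Gsto1, Gstt2, Gstt3, Gclm and Sod2 turned when a single rat was left out. Most of the 20 differences were small. Their median was 0.06 (log2), against -0.01 over all named genes, and the median of their absolute size was 0.07, against 0.09. The difference between the diets made up a median of 11.6% of the variance over the 8 rats for these genes, against 15.8% over all named genes.

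**Figure D2:**
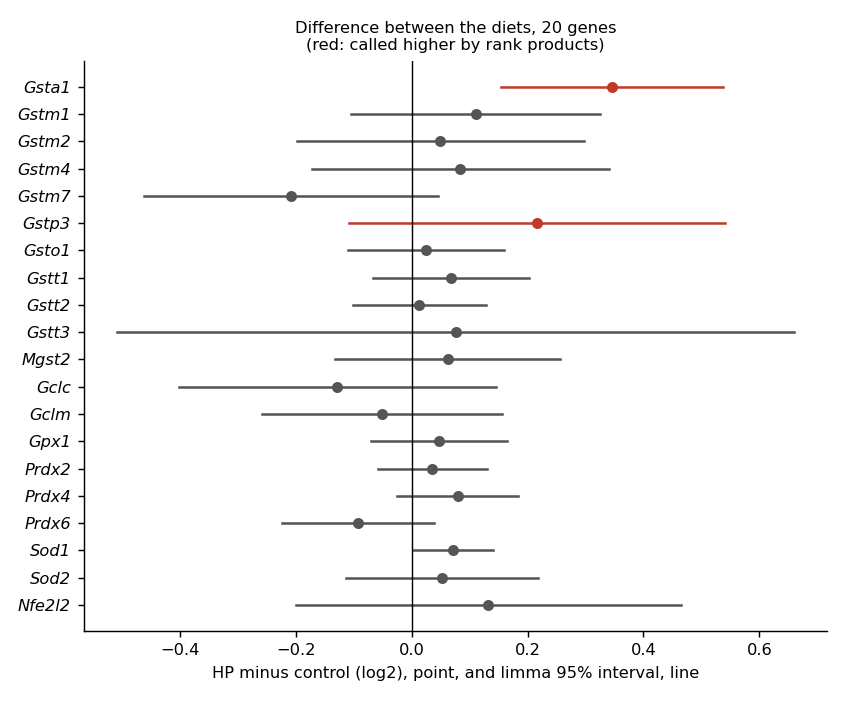
Difference between the diets for the 20 genes compared, HP minus control in log2 units, with the limma 95% interval as a line. Red marks the 2 genes that rank products called, Gsta1 at 0.35 and Gstp3 at 0.22, and the intervals of Gsta1 and Sod1 lie above 0.

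Gsta1 was the gene that separated the diets. The alpha class transferases conjugate electrophiles and reduce lipid hydroperoxides, and they are plentiful in hepatocytes. In the control rats its log2 level was 12.28, 12.10, 12.16 and 12.27, and in the HP rats 12.60, 12.30, 12.60 and 12.71. Each HP rat was above each control rat, although HP rat 2 exceeded the highest control by only 0.02. The mean rose from 12.20 ± 0.09 to 12.55 ± 0.17 (SD, n = 4 each), a difference of 0.35 (SE 0.08, 95% interval 0.15 to 0.54) or 1.27-fold. Rank products gave an FDR of 0.00391, and limma an adjusted p of 0.217, which missed its threshold. Leaving out 1 rat at a time kept the difference between 0.29 (without HP rat 4) and 0.43 (without HP rat 2), with rank products calling it each time. The call was lost, with an FDR of 0.290, when only the probe sets that span 0.05 were ranked. The difference between the diets made up 67.9% of the variance of Gsta1 over the 8 rats. The other alpha class genes Gsta3, Gsta4 and Gsta3l1 were flat, at 6.02, 10.31 and 5.88. The probe set with the symbols Gsta5 and Gsta2 was not flat. It measured 11.91, 11.81, 11.87 and 11.97 in control rats and 11.84, 11.87, 11.87 and 11.70 in HP rats, a difference of -0.07 (SE 0.05, adjusted p = 0.566 by limma) that was not called, with HP rat 4 the lowest of the 8. RefSeq places Gsta3 and Gsta6 directly beside Gsta1. Genes of a transferase class resemble each other in sequence, and whether RNA of one binds the probes of another was not tested.

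Gstp3 was called at a smaller margin. The control rats measured 10.65, 11.06, 11.22 and 11.05, and the HP rats 11.25, 11.07, 11.00 and 11.52. HP rats 2 and 3 lay within the range of the controls, HP rats 1 and 4 above it, and control rat 1 below all HP rats. The mean was 10.99 ± 0.24 in control rats and 11.21 ± 0.24 in HP rats (SD, n = 4 each), a difference of 0.22 (SE 0.14, 95% interval -0.11 to 0.54). The FDR of rank products was 0.0442 and the adjusted p of limma 0.527. The difference was 0.10 without control rat 1, 0.11 without HP rat 4 and 0.09 with array weights, and the call was lost without control rat 1 and without any 1 of the 4 HP rats. Gstp1 lies directly beside Gstp3 in RefSeq and was flat, so that the 2 pi class genes could not be set against each other.

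**Figure D3:**
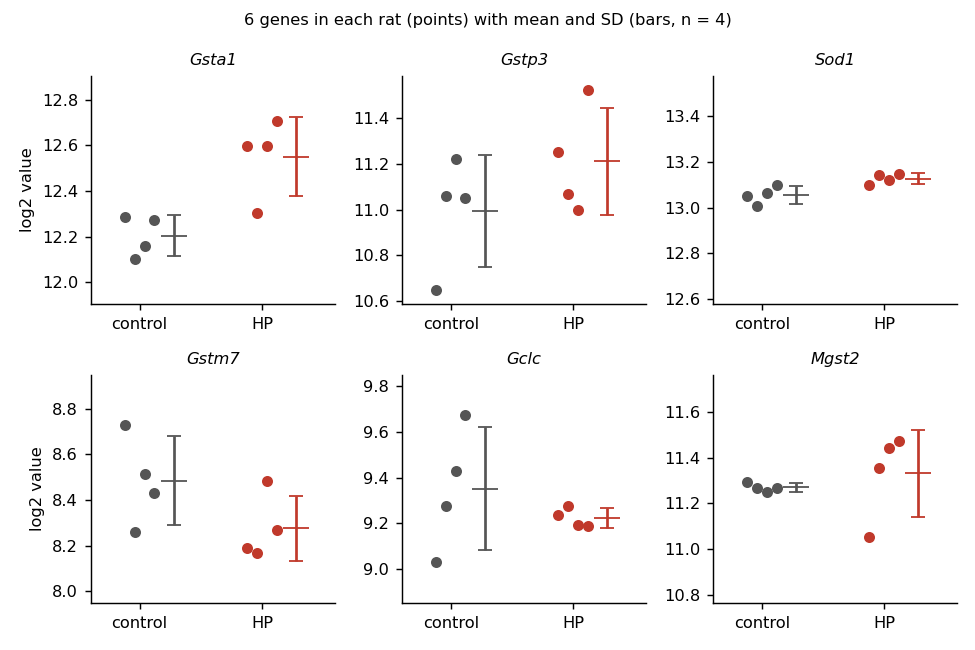
Log2 level of Gsta1, Gstp3, Sod1, Gstm7, Gclc and Mgst2 in each of the 8 rats (points), with the mean and SD of each diet (bars, n = 4). All panels have an axis of the same length; the Gsta1 groups do not overlap, the Gclc controls run from 9.03 to 9.67, and the HP rats of Mgst2 run from 11.05 to 11.47.

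The mu class, which conjugates a wide range of aromatic and epoxide compounds, had 4 genes that could be compared, and none was called. Gstm1 measured 11.72, 11.63, 11.84 and 11.97 in control rats and 11.80, 12.14, 11.86 and 11.81 in HP rats, a difference of 0.11 (SE 0.09, adjusted p = 0.613 by limma) that was 0.03 without HP rat 2. Gstm2 measured 10.30, 9.89, 10.16 and 10.41 in control rats and 10.14, 10.39, 10.26 and 10.18 in HP rats, a difference of 0.05 (SE 0.11) that turned to -0.05 without control rat 2. Gstm4 measured 8.03, 7.80, 8.11 and 8.22 in control rats and 7.88, 8.24, 8.20 and 8.18 in HP rats, a difference of 0.08 (SE 0.11) that was 0.01 without control rat 2. In all 3 genes control rat 2 was the lowest of the 8, and control rat 4 and HP rat 2 were the 2 highest. These 3 lie next to each other in the RefSeq gene order (Gstm2, Gstm1, Gstm4). Gstm7, 4 genes away from Gstm2 in that order, had a different pattern. It measured 8.73, 8.26, 8.51 and 8.43 in control rats and 8.19, 8.17, 8.48 and 8.27 in HP rats, a difference of -0.21 (SE 0.11, adjusted p = 0.454 by limma). The FDR of rank products for a lower level was 0.0544, and it was 0.0241, below the threshold, without HP rat 3. The difference shrank to -0.13 without control rat 1 and to -0.12 with array weights, and was -0.28 without control rat 2. HP rat 2, the highest rat for Gstm1 and Gstm4, was the lowest for Gstm7.

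**Figure D4:**
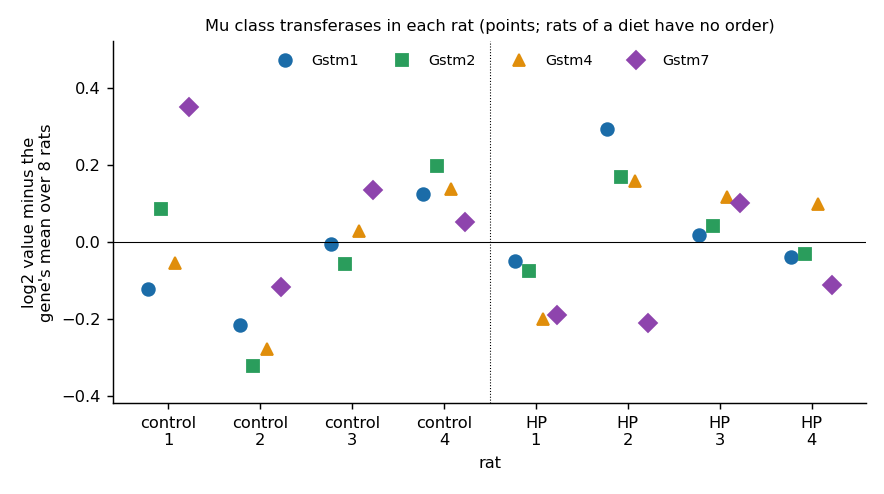
Log2 level of 4 mu class transferases in each rat, minus the mean of that gene over the 8 rats. Gstm1, Gstm2 and Gstm4 are at their lowest in control rat 2 (11.63, 9.89 and 7.80), whereas Gstm7 is highest in control rat 1 (8.73).

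The theta class, which acts on small halogenated compounds, and the omega class, which reduces dehydroascorbate, differed little between the diets. Gstt3 had the widest spread of all 20 genes. Control rats ran from 9.24 to 10.41 (10.41, 9.24, 9.48 and 9.79) and HP rats from 9.32 to 10.15 (9.94, 10.15, 9.82 and 9.32), so that the highest rat was 2.25-fold above the lowest. The difference of 0.08 (SE 0.26) was far below this spread, and its sign turned when control rat 2, control rat 3 or HP rat 2 was left out. Without control rat 1, the highest of the 8, rank products called Gstt3 higher at an FDR of 0.0111. Its neighbour Gstt1 ran from 8.68 to 8.77 in control rats and from 8.71 to 8.89 in HP rats, a difference of 0.07 (SE 0.06). Gstt2 and Gsto1 differed by 0.01 (SE 0.05) and 0.02 (SE 0.06), and both signs turned when a single rat was left out. Among the microsomal transferases, Mgst2, which can also form leukotriene C4, was the gene that could be compared. It lay between 11.25 and 11.29 in the 4 control rats and measured 11.05, 11.35, 11.44 and 11.47 in the HP rats. HP rat 1 was below all controls and the other three were above all of them, with an SD of 0.02 in control rats and 0.19 in HP rats. The difference of the means was 0.06 (SE 0.09), and 0.15 without HP rat 1.

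Glutamate-cysteine ligase makes the first and rate-limiting bond of glutathione, with Gclc as its catalytic and Gclm as its modifier subunit. Neither subunit was called. Gclc measured 9.03, 9.27, 9.43 and 9.67 in control rats and 9.24, 9.28, 9.19 and 9.19 in HP rats. All 4 HP rats lay inside the range of the controls, with an SD of 0.04 against 0.27, and the means differed by -0.13 (SE 0.12, 95% interval -0.40 to 0.14). Leaving out control rat 1 gave -0.24, and leaving out control rat 4 gave -0.02. A second probe set of Gclc gave -0.10 (SE 0.08). Gclm measured 9.97, 9.97, 10.04 and 10.12 in control rats and 10.25, 9.81, 9.94 and 9.91 in HP rats, a difference of -0.05 (SE 0.09). HP rat 1 was the highest of all 8 rats for Gclm and the other three HP rats were the lowest, and the sign turned without HP rat 2.

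The superoxide dismutases convert superoxide to hydrogen peroxide, Sod1 with copper and zinc mostly in the cytosol and Sod2 with manganese in mitochondria. Sod1 measured 13.05, 13.01, 13.06 and 13.10 in control rats and 13.10, 13.14, 13.12 and 13.15 in HP rats. 3 of the 4 HP rats were above the highest control, and the groups overlapped by 0.0032. The difference was 0.07 (SE 0.03, 95% interval 0.00 to 0.14), or 1.05-fold, with an adjusted p of 0.386 by limma and an FDR of 0.109 by rank products, so that neither method called it. Sod2 measured 10.17, 10.14, 10.15 and 10.24 in control rats and 10.27, 10.41, 10.11 and 10.12 in HP rats. HP rats held both the 2 highest and the 2 lowest values of Sod2, and the difference of 0.05 (SE 0.07) turned sign without HP rat 2.

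The peroxide enzymes downstream of the dismutases differed little between the diets. Gpx1, the selenium-dependent glutathione peroxidase of the cytosol, ran from 13.10 to 13.34 in control rats and from 13.20 to 13.30 in HP rats, a difference of 0.05 (SE 0.05). Prdx4, the peroxiredoxin of the endoplasmic reticulum, measured 11.51, 11.52, 11.48 and 11.48 in control rats and 11.52, 11.57, 11.53 and 11.69 in HP rats. 3 HP rats were above the highest control, and the difference was 0.08 (SE 0.05, adjusted p = 0.480 by limma). Prdx2 in the cytosol differed by 0.04 (SE 0.04). Prdx6, which draws on glutathione to reduce phospholipid hydroperoxides, was the peroxiredoxin with a lower HP mean, at 10.09, 10.20, 10.22 and 10.27 against 10.12, 10.18, 10.01 and 10.10, a difference of -0.09 (SE 0.06). The overlap of the groups was wide for Prdx6 and narrow for Prdx4.

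Nfe2l2 itself measured 9.66, 9.60, 9.73 and 9.93 in control rats and 10.06, 9.68, 9.52 and 10.19 in HP rats. HP rats 1 and 4 were the highest of the 8 and HP rat 3 was the lowest, with an SD of 0.31 in HP rats and 0.14 in control rats. The difference was 0.13 (SE 0.15, adjusted p = 0.709 by limma). It was 0.02 when HP rat 4 was left out and 0.25 when HP rat 3 was. Since Keap1 was flat, the pair could not be compared. Nrf2 activity is set mainly by the stability of the protein, which arrays do not measure.

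Individual rats contributed unevenly. Control rat 2 was the lowest rat for 7 of the 20 genes and the highest for 0, and HP rat 4 was the highest for 6 and the lowest for 0. Control rat 4, in contrast, was the highest for 5 genes. Centred on each gene's mean, the median over the 20 genes was -0.06 in control rat 2 and between -0.04 and 0.04 in the other rats, against -0.01 for control rat 2 over all named genes.

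Other genes around these enzymes were counted from lists written with the members left out. Of 11 other genes reported as Nrf2 targets that could be compared, rank products called 1 higher, against 8.48% of all named genes. It called 1 lower, against 9.62%. These counts are close to the shares over all named genes, and the median difference of the 11 was 0.03. Me1, which supplies NADPH, rose by 0.23 (SE 0.10, FDR 0.0348), and Hmox1, which breaks down heme and is a common readout of Nrf2, fell by 0.18 (SE 0.09, FDR 0.0398). Hmox1 measured 8.26, 8.09, 8.41 and 8.29 in control rats and 8.07, 8.21, 8.00 and 8.03 in HP rats. 3 of the 4 HP rats were below the lowest control and HP rat 2 lay among the controls. Sqstm1, which competes for Keap1, differed by -0.15 (SE 0.06) and was not called, and it was the gene with the largest difference among the 3 genes of Nrf2 control that could be compared, none of which was called.

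The list of cysteine and methionine supply, which also holds genes of homocysteine remethylation and glutathione breakdown, had the most calls. Of 12 genes that could be compared, 5 were called lower by rank products, against 9.62% of all named genes, and 0 higher, against 8.48%. The diets did not overlap, with HP lower, for 4 of the 12, against 3.53% of all named genes, and the median difference was -0.15. Bhmt, which remethylates homocysteine from betaine, fell by 0.40 (FDR 0.00354). Cbs, which commits homocysteine to cysteine, measured 10.10, 10.07, 10.12 and 10.00 in control rats and 9.85, 9.92, 9.97 and 9.83 in HP rats and fell by 0.18 (SE 0.05, FDR 0.0370). Slc3a2, the heavy chain shared by the cystine carrier and other amino acid carriers, fell by 0.18 (SE 0.06), with every HP rat (9.00 to 9.13) below every control (9.18 to 9.34). Gnmt, a methyl sink of the methionine cycle, fell by 0.18 (SE 0.04), and Ggct, which acts in the breakdown of glutathione, fell by 0.21 (SE 0.09) with overlap. Cth, the enzyme that releases cysteine after Cbs, differed by -0.04 (SE 0.10). By limma, 0 of the 12 passed, and the smallest adjusted p was 0.217. Bhmt, Cbs and Gnmt were known to be lower on these same arrays when the list was written, so that the list is no independent evidence of its direction.

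**Figure D5:**
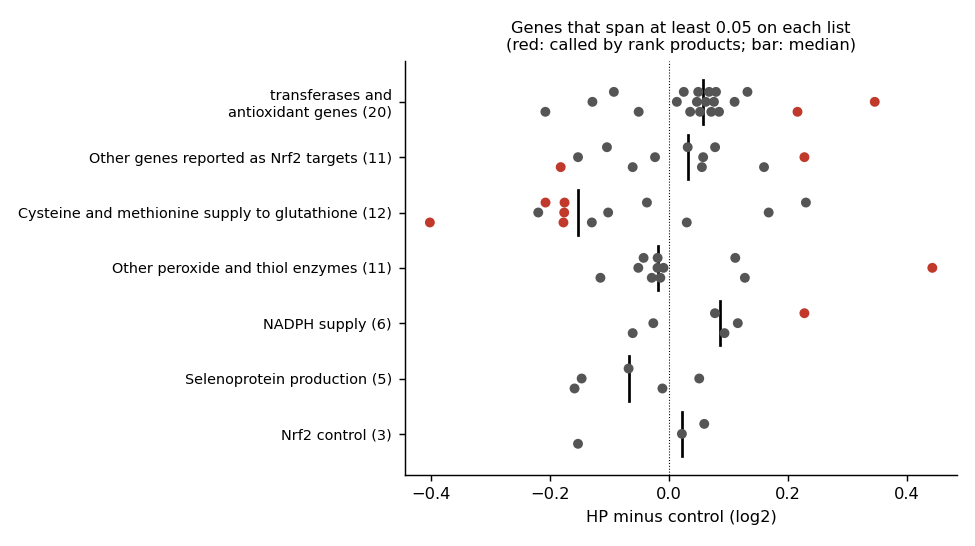
Difference between the diets (HP minus control, log2) of each gene that could be compared in the group described here and on 6 other lists, with the number of genes in brackets and a bar at the median. Red points are called by rank products. Among them are 2 of 20 transferases and antioxidant genes, all higher, and 5 of 12 genes of cysteine and methionine supply, all lower. The other red points are Hmox1, lower, and Txnip and Me1, higher, with Me1 shown on each list that holds it. Over all named genes that spanned 0.05, 8.48% were called higher and 9.62% lower.

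Among 11 other peroxide and thiol enzymes, 1 was called higher, against 8.48% of all named genes, and 0 lower, against 9.62%. These counts are close to the shares over all named genes, and the median difference of the 11 was -0.02. Txnip, which binds thioredoxin and restrains glucose uptake, rose by 0.44 (SE 0.16, FDR 0.00298), from 10.24, 9.79, 9.59 and 10.18 in control rats to 10.19, 10.62, 10.52 and 10.24 in HP rats. HP rat 1 lay below the highest control. Glrx, a glutaredoxin that reduces mixed disulfides with glutathione, differed by 0.13 (SE 0.06), and Cat, the peroxisomal catalase, by -0.03 (SE 0.06). Of 6 genes that supply NADPH, Me1 was the 1 called, higher, against 8.48% of all named genes, and the median difference was 0.09. The diets did not overlap, with HP higher, for 1 of the 6, against 3.6% of all named genes. Idh1, the cytosolic isocitrate dehydrogenase, was 12.28 to 12.34 in control rats and 12.34 to 12.50 in HP rats without overlap, a difference of 0.09 (SE 0.04) that was not called. Of 5 genes for the production of selenoproteins, none was called, and the 2 with the largest differences were Sephs2 at -0.16 (SE 0.09) and Scly at -0.15 (SE 0.14). No gene of these lists passed limma at an adjusted p under 0.05.

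Cell markers moved beside these results, and their part in them was not tested. The lists are short, and rank products called 8.48% of all named genes that spanned 0.05 higher and 9.62% lower. No marker passed limma at an adjusted p under 0.05. The mean over 6 periportal hepatocyte markers was 10.23 to 10.48 in control rats and 10.00 to 10.12 in HP rats. Rank products called 4 of the 6 lower (Sds, Gls2, Ass1 and Hal), and Sds had the largest difference, -1.11. The periportal markers not called went in opposite directions, Cdh1 by 0.14 and Cyp2f4 by -0.03. Over 4 pericentral markers the mean was 11.23 to 11.50 in control rats and 11.08 to 11.44 in HP rats, with none called. Of these, Oat differed by -0.19 and just missed the threshold for a lower level, with an FDR of 0.0523. Glul differed by -0.19, and Cyp1a2 and Cyp2e1 went the other way, by 0.10 and 0.02. Of 4 sinusoidal endothelial markers, Kdr and Stab2 were called higher, and of 6 markers of Kupffer cells and macrophages Cd5l was called lower, with means of 8.50 to 8.92 in control rats and 8.47 to 8.71 in HP rats. Over 5 hepatocyte markers the mean was 12.82 to 12.91 and 12.75 to 12.84, with Cps1 called lower. Hnf4a entered this mean by the brightest of its 2 probe sets that spanned 0.05, at -0.10 (SE 0.10), whereas the study lists Hnf4a as higher in HP rats. None of 6 stellate cell markers was called, and the 1 erythroid marker, Hbb, was called higher by 0.24.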

How the data were processed

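Liver RNA of 4 control and 4 HP rats was measured on 1 Affymetrix rat array each, grouped by the sample labels. The deposited values are log2 levels that the authors obtained with FARMS in R 2.13.1 (submitters' processing notes). How the arrays were normalized to each other was not stated in the methods or labels. Members and lists were chosen with earlier results of these data known.

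Probe sets were named where the platform annotation gave 1 symbol (20826 of 31042), and all 42 genes matched RefSeq by symbol. Following the study's methods, rank products were computed over 31099 probe sets with 1000 permutations and an FDR under 0.05 (Python 3.11.15, numpy 2.4.6, pandas 2.3.3, scipy 1.17.1, matplotlib 3.10.9). limma 3.58.1 (R 4.3.3, statmod 1.5.0) was fitted with trended, robust variances over the 4155 probe sets that span 0.05, control probe sets left out, and adjusted by Benjamini-Hochberg (two-sided p under 0.05). Scripts were tested on simulated data.

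Alternatives were centring, quantile normalization, other filters on span and dim probe sets, other variance settings of limma, a replicate block, other rules for several probe sets, and each rat left out. Named were genes that were called, had an unadjusted p under 0.05 or did not overlap, the brightest and most different of each role, 11 fixed genes (Nfe2l2, Keap1, Gclc, Gclm, Gss, Gsr, Nqo1, Gstp1, Gpx1, Sod1, Sod2), and the called or 2 most different of each list. The others were chosen after their values were seen.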

Additional observations from a re-analysis of the deposited data

Results flagged for a closer look

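In each of the 20 genes, the 4 rats of a diet were screened for a value far from the other three, 40 groups in all. 1 group held one: Gstm4 in HP rat 1, at 7.88 (log2), was 0.833 of the group's range away from the nearest value, 8.18, which lies just above the limit of Dixon's test. Chance marks about 1 in 20 such groups. Control rats 2, 1 and 3 lay at 7.80, 8.03 and 8.11 for the same gene.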

How the results depend on the processing

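The number of the 20 genes called higher by rank products was 2 in the reported setting. It was 0 when only probe sets that span at least 0.05 were ranked, where Gsta1 and Gstp3 were both lost, 1 with the dimmest 25% of probe sets left out, and 1 to 2 with 1 rat left out. Gsta1 was called in 11 of 12 other rank products settings and Gstp3 in 5. The number called lower was 0, and 0 to 1 with 1 rat left out (Gstm7 without HP rat 3). limma called 0 genes at an adjusted p under 0.05 in every setting. The median difference was 0.06, and 0.03 to 0.08 with 1 rat left out. It was 0.08 after centring and 0.07 after quantile normalization. Of the 20 differences, 14 kept their sign in every other limma setting that included them (16, except that a span of 0.2 leaves out Prdx2, Sod1 and Gstt2), and 6 turned in at least 1 of them (Gstm2, Gsto1, Gstt2, Gstt3, Gclm and Sod2), none of them under centring or quantile normalization. The cause was not tested. The replicate numbers of the labels do not say that rats were paired. Deviations of same-numbered rats correlated at 0.479, 0.0309, -0.123 and -0.197, and 1 of 4 control rats correlated best with its own number. With the replicate block, limma called 0 genes, as without it, and 1 gene rather than 2 had an unadjusted p under 0.05 in the higher direction. With 4 rats a group, differences such as those of Gstt3 and Gclc lie below the spread between rats, and for the 22 flat genes the arrays set no bound on a change.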
